A study of Cricetulus griseus with 6 samples.

Results

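Cytokines and chemokines are small secreted proteins that carry signals between cells. Among 8 of their genes measured by RNA-Seq in CHO-T cells, *Il33* was the most abundant and fell after *Xbp1* silencing, *Cxcl10* rose from a few reads per library, *Il6* and *Csf1* were moderately higher, and *Lif* did not pass the test. The genes were chosen by name, as the rows of the deposited tables with the symbol *Cxcl10*, *Il7*, *Il33*, *Il6*, *Il1a*, *Csf1*, *Csf2*, *Lif* or *Ccl2*. Of these 9 symbols, 8 had a row among the 27873 entries of the tables, and *Ccl2* was not analysed here.

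The CHO-T line derives from CHO, the ovary cells of the Chinese hamster, and its cells stably express T-cadherin (*Cdh13*) from a retroviral promoter, and libraries of both conditions carry this transgene. Cells were transfected with negative control siRNA (control siRNA, n = 3 libraries) or with siRNA against *Xbp1* (n = 3 libraries), given fresh medium the day after seeding and harvested a day later. The labels do not say whether libraries of 1 condition came from separate cultures, and the study's methods state only in general that results come from independent biological experiments unless otherwise specified. The p-values here measure the spread between these libraries, which may be technical. *Xbp1* encodes a transcription factor that the ER stress sensor IRE1α activates by splicing its mRNA, and the study used its silencing to activate IRE1α.

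Most of these genes are silent or weakly expressed in resting cells and are induced through NF-kB, AP-1 or interferon signalling. Their mRNAs are often short lived, since RNA-binding proteins recognise AU-rich or stem-loop elements in them and recruit decay factors. IL-33 and IL-1α belong to the IL-1 family and can act as alarmins that leave damaged cells. IL-6 and LIF signal through receptors that share the chain encoded by *Il6st*. CSF-1 and GM-CSF (encoded by *Csf2*) drive the growth and activation of myeloid cells, CXCL10 attracts T cells and is a classical interferon-inducible chemokine, and IL-7 sustains lymphocytes.

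*Xbp1* itself had between 26.0 and 28.4 FPKM (fragment counts scaled to transcript length and to library size) with control siRNA and between 1.39 and 2.18 FPKM with *Xbp1* siRNA, so that its mean was 7.05% of the control. FPKM summed to between 646651 and 666267 in the control libraries and between 593487 and 600986 in those with *Xbp1* siRNA. The sums therefore did not overlap between the conditions. Expression was compared with limma on log2(FPKM + 0.1), a scale on which changes of low genes come out too small, over the 14361 entries with a mean of at least 0.1 FPKM. An entry was called when its Benjamini-Hochberg adjusted p was under 0.05 and its log2 fold change (log2FC) at least 1 in size, which held for 386 entries (2.69% of those tested) in the higher and 359 (2.50%) in the lower direction. After scaling the libraries to equal FPKM sums, 566 entries were called higher and 254 lower, and the median log2FC of all entries tested moved from 0.01 to 0.14.

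As a check of the cell type, markers of other cells were examined. Of 12 haematopoietic markers with a row, 6 were listed at 0 in every library, among them the pan-leukocyte gene *Ptprc*, *Cd3e* and *Cd14*. The summed level of the list was between 5.89 and 6.98 FPKM with control siRNA and between 7.93 and 9.16 FPKM with *Xbp1* siRNA, most of it from *Cd68*, a lysosomal gene that other cells also express. Of 5 endothelial markers, 2 were at 0 throughout and the others summed to at most 0.412 FPKM. Of 7 mesenchymal markers, 3 were at 0 throughout (*Col1a1*, *Col1a2* and *Thy1*), and the list summed to between 687 and 726 FPKM with control siRNA and to between 527 and 558 FPKM with *Xbp1* siRNA, nearly all of it from *Vim* and *Sparc*. Of the 4 tested, 3 were lower and *Fn1* was higher at an adjusted p under 0.05, beside 20.2% of all entries each way. The mean of *Fn1* went from 13.1 to 23.3 FPKM, with log2FC 0.83 (adjusted p = 2.15e-05, limma). Of 10 markers of ovarian granulosa and theca cells and oocytes, 7 had a row, 3 of these were at 0 throughout, and the list summed to at most 8.78 FPKM. The epithelial markers *Epcam* and *Cdh1* were called higher with *Xbp1* siRNA, beside 2.69% of all entries. *Cdh1* was only just called (adjusted p = 0.0489, limma), with means of 0.131 and 0.434 FPKM. Of the epithelial list, 4 markers had a row and 2 of these were at 0 throughout. The list summed to 1.83 to 2.16 FPKM with control siRNA and to 4.59 to 5.79 FPKM with *Xbp1* siRNA. The haematopoietic, mesenchymal and epithelial sums moved with the condition, and their part in the cytokine values was not tested. In bulk RNA, a change in the share of expressing cells and a change in RNA per cell cannot be told apart.

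**Figure D1:**
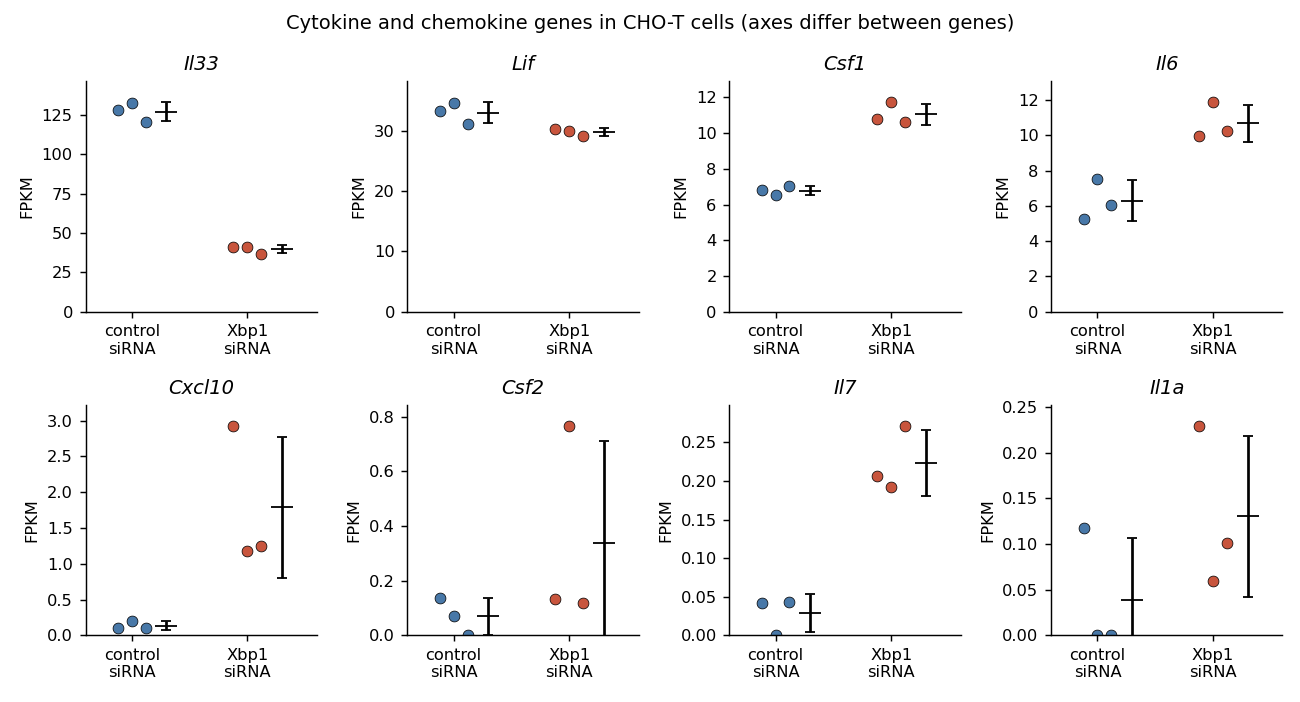
FPKM (linear axes from 0, which differ between genes) of the 8 genes in libraries with control siRNA (blue) and *Xbp1* siRNA (red); points are libraries and the black bars beside them are the mean ± SD (n = 3, bars cut at 0). The conditions do not overlap for *Il33*, *Lif*, *Csf1*, *Il6*, *Cxcl10* and *Il7*, and they overlap for *Csf2* and *Il1a*.

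Since FPKM is given per length, levels can be set beside each other. With control siRNA, *Il33* stood highest, then *Lif*, then *Csf1* and *Il6*, whose ranges overlapped, and *Cxcl10*, *Csf2*, *Il1a* and *Il7* were all at or under 0.206 FPKM. With *Xbp1* siRNA, the order of the upper genes stayed, *Csf1* and *Il6* overlapped again, and *Cxcl10* stood apart from the remaining 3 genes. The 8 genes together summed to 173 ± 8.29 FPKM under control siRNA against 93.8 ± 4.69 FPKM under *Xbp1* siRNA (SD, n = 3 each). *Il33* held 73.3% ± 0.365 of the sum in the former and 42.4% ± 0.806 in the latter (SD, n = 3). Without *Il33*, the sum was 46.3 ± 2.33 FPKM under control siRNA against 54.0 ± 2.12 FPKM (SD, n = 3 each).

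**Figure D2:**
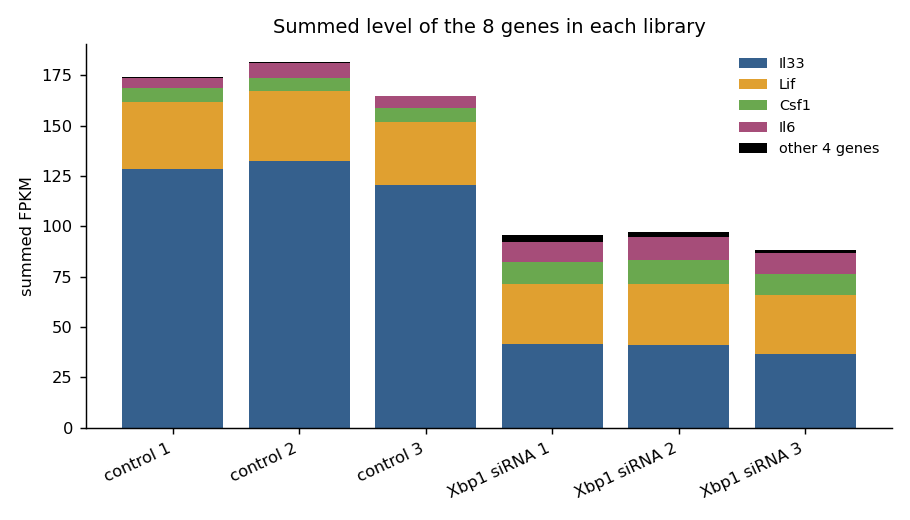
Summed FPKM of the 8 genes (vertical axis) in each library (horizontal axis), stacked by gene, with the 4 weakly expressed genes drawn together in black. The 3 libraries with *Xbp1* siRNA reach 88.4 to 97.1 FPKM against 165 to 181 FPKM in the control libraries, and the loss lies in *Il33*.

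Of the 8 genes, 7 passed the filter on low values and 1, *Il1a*, did not. *Csf2* and *Il7* passed it only through the libraries with *Xbp1* siRNA, so that their number is no evidence of a direction. *Cxcl10* and *Il7* were called higher and *Il33* lower, beside 2.69% and 2.50% of all entries. These 3 genes are among those that the study displayed from these same libraries, so they are not independent evidence. At an adjusted p under 0.05 without the fold threshold, *Cxcl10*, *Il7*, *Il6* and *Csf1* were higher and *Il33* was lower, where 20.2% of all entries passed in each direction. The median log2FC of the 7 genes was 0.77, against 0.01 over all entries tested, a description that includes *Csf2* and *Il7* and is no evidence of a direction either. Among these 7, the conditions did not overlap for 4 genes that were higher and 2 that were lower with *Xbp1* siRNA, where 26.1% and 25.8% of all entries did the same.

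**Figure D3:**
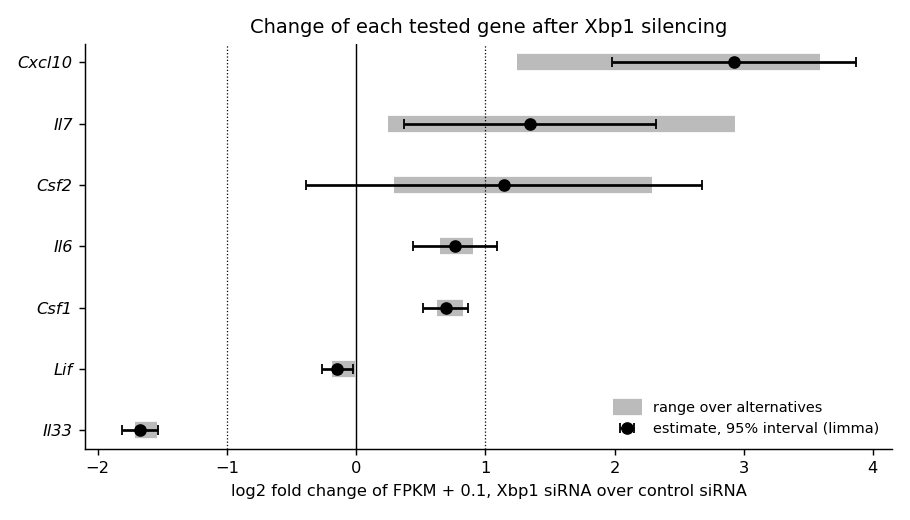
Log2FC of FPKM + 0.1 (*Xbp1* siRNA over control siRNA, horizontal axis) of the 7 tested genes; points and bars are limma estimates with 95% intervals, grey bars the range over the alternative settings, and dotted lines the fold threshold. *Il33* lies at −1.67 with a narrow interval, *Il6* and *Csf1* lie between 0 and the threshold, and the intervals of *Cxcl10*, *Il7* and *Csf2* are wide.

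*Il33* encodes a nuclear cytokine that alerts ST2-bearing immune cells when cells are damaged. It had 128, 133 and 121 FPKM in the control libraries and 41.4, 41.3 and 36.8 FPKM in those with *Xbp1* siRNA. The libraries of the 2 conditions were far apart, and within each condition the values differed little. Its mean fell to 31.3% of the control, with log2FC −1.67 (standard error, SE, 0.06, adjusted p = 2.55e-06, limma). In the ranking of all entries above 0 within a library, *Il33* moved from between the 94.3 and 94.8 percentile to between the 80.1 and 82.0 percentile. An exact two-sided permutation test gave p = 0.10, the smallest that 3 libraries against 3 allow, here and for each other gene or ratio whose conditions did not overlap.

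Ratios of genes within a library do not depend on how the libraries were scaled. The ratio of *Il33* to *Lif* was 3.85, 3.84 and 3.88 with control siRNA and 1.37, 1.38 and 1.27 with *Xbp1* siRNA. The ratio was lower in every library with *Xbp1* siRNA, by far more than the spread within a condition. The ratio of *Il33* to *Il6* was 20.6 ± 3.47 under control siRNA against 3.74 ± 0.370 under *Xbp1* siRNA (SD, n = 3 each).

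*Il1a*, the gene of the alarmin IL-1α, was near the read floor. It had 0.118, 0 and 0 FPKM with control siRNA and 0.230, 0.0599 and 0.101 FPKM with *Xbp1* siRNA. For 65.7% of 3065 low entries, *Il1a* among them, the FPKM values fell on whole multiples of a step, and a step was taken as 1 read, so that *Il1a* held 2, 0 and 0 reads under control siRNA against 4, 1 and 2 reads under *Xbp1* siRNA. The conditions overlapped. The ratio of summed reads per unit of depth was 3.23, with a 95% interval of 0.614 to 31.8 (exact binomial), which covers counting error only and includes no change. Tested without the filter, its log2FC was 0.76 (SE 0.42, adjusted p = 0.229, limma), so that no difference was detectable at this depth. *Il1b*, which lies next to *Il1a* in the RefSeq order of genes on the hamster assembly CriGri-PICRH-1.0, was listed at 0 in all 6 libraries.

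*Lif* encodes leukemia inhibitory factor, known for keeping mouse embryonic stem cells undifferentiated. It had 33.3, 34.5 and 31.1 FPKM with control siRNA and 30.2, 29.98 and 29.0 FPKM with *Xbp1* siRNA. All libraries with *Xbp1* siRNA lay below all control libraries, by a small margin. Its mean was 90.2% of the control, and its log2FC was −0.15 with a 95% interval of −0.27 to −0.03 (adjusted p = 0.0556, limma), so that it did not pass the test and a change of 1 on the log2 scale lies outside the interval. When the libraries were scaled to equal FPKM sums the value was −0.01, with the median of all entries at 0.14. Over the alternatives the adjusted p lay between 0.0262 and 0.866 (limma), the latter with equal sums. It was under 0.05 in 3 of them, without control replicate 3 (0.0262), with the replicate number as a block (0.0481) and with a filter at a mean of 1 FPKM (0.0491), each with a log2FC far under the fold threshold.

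*Il6*, the gene of the acute-phase cytokine IL-6, had 5.26, 7.55 and 6.07 FPKM with control siRNA and 9.94, 11.9 and 10.2 FPKM with *Xbp1* siRNA. Replicate 2 was the highest library of either condition, and the conditions did not overlap. Its mean was 1.70-fold higher, with log2FC 0.77 (SE 0.14, adjusted p = 0.00388, limma). The change passed the p threshold and not the fold threshold. In the 6 fits that each left out 1 library, log2FC lay between 0.65 and 0.90 and the adjusted p between 0.00203 and 0.0162 (limma).

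Set against *Lif* in the same library, *Il6* had a ratio of 0.191 ± 0.0305 under control siRNA against 0.360 ± 0.0343 under *Xbp1* siRNA (SD, n = 3 each). The 2 genes signal through the same shared receptor chain, and their log2FC values had different signs, although that of *Lif* did not pass the test.

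*Csf1* encodes CSF-1, the growth factor of macrophages. It had 6.79, 6.51 and 7.06 FPKM with control siRNA and 10.8, 11.7 and 10.6 FPKM with *Xbp1* siRNA. The values were tight within each condition, and every library with *Xbp1* siRNA lay above every control library. Its mean was 1.63-fold higher, with log2FC 0.69 (SE 0.07, adjusted p = 3.09e-04, limma), under the fold threshold. The ratio of *Il6* to *Csf1* within a library was 0.932 ± 0.202 under control siRNA against 0.966 ± 0.0455 under *Xbp1* siRNA (SD, n = 3 each), and its ranges overlapped.

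*Csf2*, the gene of GM-CSF, had 0.137, 0.0728 and 0 FPKM with control siRNA and 0.134, 0.767 and 0.118 FPKM with *Xbp1* siRNA. In reads these were 2, 1 and 0 against 2, 11 and 2. A single library, *Xbp1* siRNA replicate 2, therefore held most of the reads, and the other 5 libraries held 0 to 2 reads. The ratio of summed reads per unit of depth was 4.61 (95% interval 1.30 to 24.8, exact binomial, counting error only), and the interval takes no account of this spread between libraries. By limma the log2FC was 1.14 with an adjusted p of 0.210, so it was not called, and without *Xbp1* siRNA replicate 2 *Csf2* fell under the filter. For *Cxcl10*, *Il7* and *Il1a*, the same library was the lowest of the 3 with *Xbp1* siRNA.

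*Cxcl10* had 0.0969, 0.206 and 0.0988 FPKM with control siRNA and 2.93, 1.18 and 1.25 FPKM with *Xbp1* siRNA. All control libraries were at the read floor, with 1, 2 and 1 reads, while *Xbp1* siRNA replicate 1 held 31 reads and the other two 12 and 15. The ratio of summed reads per unit of depth was 13.4 (95% interval 4.95 to 50.7, exact binomial, counting error only). The fitted log2FC was 2.93 (SE 0.40, adjusted p = 9.94e-04, limma), and it was 3.59 with a pseudocount of 0.01 and 1.24 with a pseudocount of 1. Without *Xbp1* siRNA replicate 1, the highest library, it was 2.53 (adjusted p = 0.00306, limma).

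The genes that lie next to *Cxcl10* in the RefSeq order were *Cxcl9*, another interferon-inducible chemokine, and *Ikbip*. *Cxcl9* held 1 read over the control libraries and 1 read over those with *Xbp1* siRNA. *Ikbip* had 12.7 FPKM with control siRNA and 12.1 FPKM with *Xbp1* siRNA on average, with log2FC −0.07 (adjusted p = 0.733, limma). *Cxcl11*, a chemokine that binds the same receptor CXCR3 and was chosen after its values were seen, held 1, 0 and 0 reads with control siRNA and 7, 3 and 1 reads with *Xbp1* siRNA. Its FPKM ranges overlapped, and with log2FC 1.66 (adjusted p = 0.0733, limma) it did not pass the test.

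*Il7*, the gene of the lymphocyte survival cytokine IL-7, had 0.0423, 0 and 0.0431 FPKM with control siRNA and 0.206, 0.192 and 0.272 FPKM with *Xbp1* siRNA. After correction for depth, the values with *Xbp1* siRNA were 5.01, 4.46 and 7.47 times the lowest control value above 0, which are not all whole multiples. With a smaller step they correspond to 2, 0 and 2 reads against 10, 9 and 15, and the ratio of summed reads per unit of depth was 7.84 (95% interval 2.79 to 30.4, exact binomial, counting error only), an interval that would be wider if that control value were 1 read. *Il7* was called with log2FC 1.34 (SE 0.42, adjusted p = 0.0364, limma). The call did not hold in any fit that left out 1 library: without control replicate 1, 2 or 3 the adjusted p was 0.0573, 0.0864 and 0.0614, without *Xbp1* siRNA replicate 1 or 2 it was 0.0844 and 0.0753 (limma), and without replicate 3 the gene fell under the filter.

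Over the 8 genes, the RefSeq order gave 16 direct neighbours, of which 15 had a row and 11 were tested. Neighbours were matched to the entries by symbol alone, and whether they lie on the same chromosome as the member was not checked. None of the 11 was called (limma), while 4 were higher and 3 lower at an adjusted p under 0.05, beside 20.2% of all entries each way. *Mfhas1* beside *Csf1* (log2FC 0.41, adjusted p = 0.00355), *P4ha2* beside *Csf2* (0.43, adjusted p = 0.00486), *Zc2hc1a* beside *Il7* (0.46, adjusted p = 0.0281) and *Ckap2l* beside *Il1a* (0.33, adjusted p = 0.0103, limma) were higher. *Ranbp6* beside *Il33* (−0.37, adjusted p = 0.0162), *Ahcyl1* on the other side of *Csf1* (−0.24, adjusted p = 0.0114) and an entry without a gene name beside *Il6* (−0.72, adjusted p = 3.39e-05, limma) were lower. The neighbours thus had the direction of the cytokine gene beside them in some cases and the opposite direction in others.

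**Figure D4:**
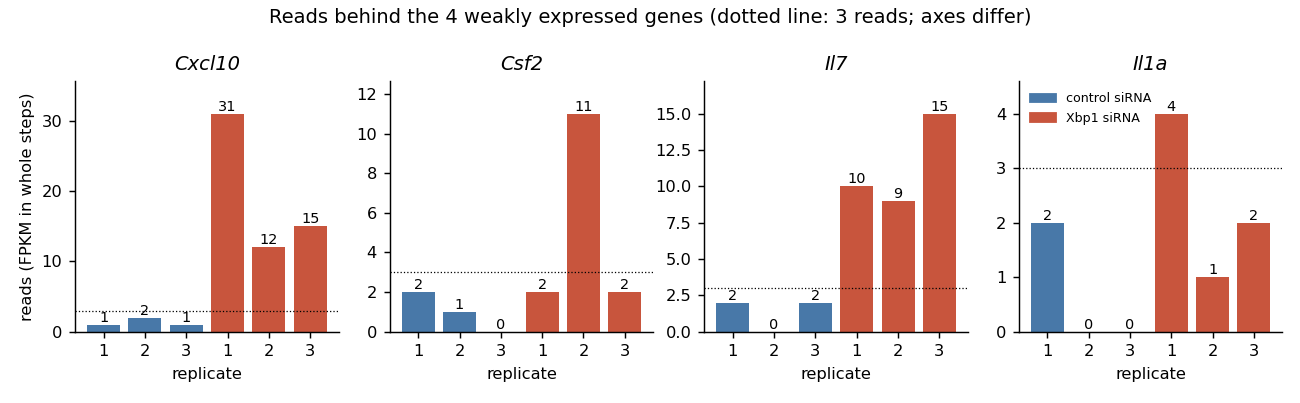
Reads (vertical axis, FPKM expressed in whole steps; axes differ) of *Cxcl10*, *Csf2*, *Il7* and *Il1a* in each library, with the number above each bar and a dotted line at 3 reads. No control library holds more than 2 reads of any of the 4 genes, *Cxcl10* and *Il7* are above the line in all 3 libraries with *Xbp1* siRNA, and *Csf2* is above it in replicate 2 alone.

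The receptors of these ligands were examined as a fixed list of 17 symbols, of which 15 had a row, 4 were at 0 in every library and 5 were tested. *Il1rl1* was called higher, where 5.19% of all entries were called in either direction. *Il1rl1* encodes ST2, the receptor of IL-33, and had 0.761, 1.12 and 0.956 FPKM with control siRNA and 2.23, 1.94 and 1.99 FPKM with *Xbp1* siRNA. The receptor gene was therefore higher in the same libraries in which the ligand gene *Il33* was lower. Its log2FC was 1.05 (SE 0.19, adjusted p = 0.00349, limma), close to the fold threshold, and it fell below that threshold without control replicate 1, at 0.92, and without *Xbp1* siRNA replicate 1, at 0.996. *Il1rap*, the accessory chain that ST2 and the IL-1 receptor share, had 16.8 ± 1.43 and then 21.4 ± 0.826 FPKM (SD, n = 3 each), with log2FC 0.35 (adjusted p = 0.00739, limma). *Il1r1*, the receptor of IL-1α, had log2FC −0.13 (adjusted p = 0.264, limma).

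*Il6st*, the signal-transducing chain for both IL-6 and LIF, was abundant and went from 43.0 ± 2.65 to 32.2 ± 1.16 FPKM (SD, n = 3 each), with log2FC −0.42 (adjusted p = 9.47e-04, limma). *Il6r*, the chain that binds IL-6, had about 1 FPKM in both conditions and log2FC −0.02 (adjusted p = 0.960, limma). *Lifr*, which LIF needs beside the shared chain, was listed at 0 in the 3 control libraries and held 2 reads over those with *Xbp1* siRNA. *Lif*, at 33.0 and 29.7 FPKM on average, was thus expressed in cells whose *Lifr* was at the read floor.

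Receptor transcripts of CSF-1, GM-CSF, CXCL10 and IL-7 were at or near 0. *Csf1r* held 5 reads over the control libraries and 6 over those with *Xbp1* siRNA, *Cxcr3* and *Ccr2* were at 0 in all 6 libraries, and *Il7r* was above 0 in 1 library with *Xbp1* siRNA, at 0.0305 FPKM. *Csf2rb*, the shared chain of the GM-CSF receptor, was above 0 in 1 library with *Xbp1* siRNA, at 0.0226 FPKM. *Il2rg*, the chain that IL-7 uses beside *Il7r*, had 0.167, 0.0796 and 0.0764 FPKM with control siRNA and 0, 0 and 0.129 FPKM with *Xbp1* siRNA. Its ranges overlapped. Whole steps were found only with the lowest value above 0 taken as 4 reads, giving 9, 4 and 4 against 0, 0 and 8. The true reads may therefore be fewer.

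**Figure D5:**
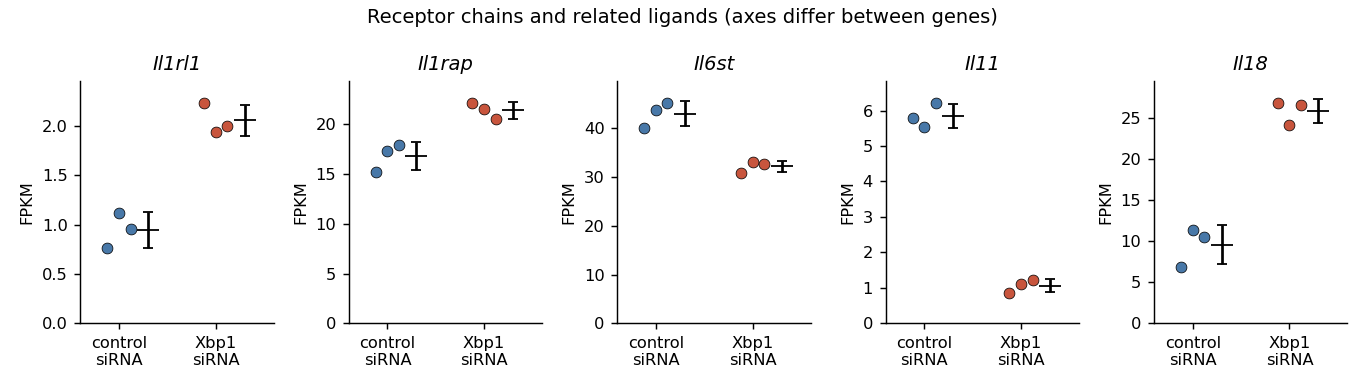
FPKM (linear axes from 0, which differ between genes) of the receptor chains *Il1rl1*, *Il1rap* and *Il6st* and of the related ligands *Il11* and *Il18*; points are libraries and black bars the mean ± SD (n = 3). The conditions do not overlap for any of the 5 genes: *Il1rl1*, *Il1rap* and *Il18* are higher with *Xbp1* siRNA, and *Il6st* and *Il11* are lower.

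A list of 98 other cytokine and chemokine genes placed these values among their families. Of the list, 77 genes had a row, 30 were at 0 in every library and 31 were tested. *Il18*, *Tnfsf4* and *Tnfsf15* were called higher and *Il11* and *Cxcl13* lower, again beside 2.69% and 2.50% of all entries. *Tnfsf15*, called, and *Csf3*, *Cxcl11* and *Ppbp*, not called, passed the filter only through the libraries with *Xbp1* siRNA, and *Il17c*, not called, only through the control libraries, so that the count is a description and no evidence of a direction. At an adjusted p under 0.05 alone, 6 were higher and 5 lower beside 20.2% of all entries each way, and the median log2FC was 0.15. *Mif*, at 365 and 359 FPKM on average, and *Tnfsf9*, at 271 and 138 FPKM, stood above *Il33* in both conditions. Neither was called, with *Tnfsf9* just under the fold threshold (log2FC −0.98, adjusted p = 1.56e-05, limma).

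Among the kin of *Il33* and *Il1a*, *Il18*, the gene of an IL-1 family cytokine released after caspase cleavage, had 6.87, 11.3 and 10.6 FPKM with control siRNA and 26.8, 24.1 and 26.5 FPKM with *Xbp1* siRNA. Its log2FC was 1.45 (adjusted p = 5.25e-04, limma). Members of the IL-1 family thus changed in opposite directions, *Il33* downward and *Il18* upward. Among the kin of *Il6* and *Lif*, *Il11*, whose product also signals through the chain encoded by *Il6st*, had 5.78, 5.53 and 6.21 FPKM with control siRNA and 0.868, 1.11 and 1.22 FPKM with *Xbp1* siRNA, with log2FC −2.36 (adjusted p = 2.94e-05, limma). Within this receptor family, *Il11* was therefore lower and *Il6* higher, each beyond the spread between libraries.

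*Tnfsf15*, which encodes the TNF-like ligand TL1A, held 3, 3 and 2 reads with control siRNA and 22, 19 and 19 with *Xbp1* siRNA, and the ratio of summed reads per unit of depth was 6.91 (95% interval 3.29 to 16.7, exact binomial, counting error only). *Tnfsf4*, the gene of OX40 ligand, had 0.407 ± 0.119 and then 1.22 ± 0.318 FPKM (SD, n = 3 each), with log2FC 1.38 (adjusted p = 0.00673, limma). *Cxcl13*, a chemokine for B cells, held 4, 5 and 7 reads with control siRNA and 3, 1 and 0 reads with *Xbp1* siRNA. Its call (log2FC −1.75, adjusted p = 0.0391, limma) did not hold without control replicate 1, 2 or 3 (adjusted p of 0.0626, 0.0929 and 0.116), or without *Xbp1* siRNA replicate 2 or 3 (0.0835 and 0.0779, limma). Over the alternative settings that tested *Cxcl13*, it was called in 5 of 14.

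No gene was called in the fixed lists of receptor-proximal signalling, of RNA-binding proteins or of IL-1 processing, where 5.19% of all entries were called. Many passed the p threshold alone, as did 40.4% of all entries (20.2% in each direction). At an unadjusted p under 0.05, 24.6% of all entries were higher and 24.3% lower. Of 15 signalling genes tested, 6 were higher and 1 was lower, and the median log2FC was 0.22. *Irak1*, a kinase downstream of the IL-1 and ST2 receptors, had log2FC 0.63 (adjusted p = 4.73e-05), *Jak3*, the kinase of the IL-7 receptor, one of 0.77 (adjusted p = 4.01e-04), and the phosphatase gene *Ptpn11* one of 0.31 (adjusted p = 5.52e-04, limma). By unadjusted p, 8 of the 15 were higher and 1 was lower.

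Of 11 RNA-binding protein genes tested, 5 were lower and 0 higher (limma, adjusted p under 0.05, beside 20.2% of all entries each way), the median log2FC was −0.21, and at an unadjusted p under 0.05 (24.6% of all entries higher, 24.3% lower) the 5 were lower and another gene, *Tial1*, was higher. *Zfp36l1* and *Zfp36*, which encode proteins that bind AU-rich elements and promote decay of cytokine mRNAs, had log2FC −0.80 (adjusted p = 3.82e-05) and −0.49 (adjusted p = 0.00759, limma). *Zfp36l1* went from 43.0 ± 0.772 to 24.7 ± 1.58 FPKM (SD, n = 3 each). *Hnrnpd*, which encodes the AU-rich element binding protein AUF1, had log2FC −0.25 (adjusted p = 0.00191, limma). Whether these levels bear on the cytokine mRNAs was not tested.

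Of 7 genes tested for the processing and release of IL-1 family cytokines, 4 were higher and 2 lower at an adjusted p under 0.05 (limma, beside 20.2% of all entries each way), 4 were higher and 3 lower at an unadjusted p under 0.05 (beside 24.6% and 24.3%), and the median log2FC was 0.17. *Capns1*, the small subunit of the calpains that cleave IL-1α, had log2FC −0.50 (adjusted p = 3.90e-05) and the pore-forming gasdermin gene *Gsdme* −0.51 (adjusted p = 1.14e-04, limma). Other calpain and gasdermin genes were among the 4 that were higher. *Capn1* had log2FC 0.41 (adjusted p = 0.00487), *Capn2* 0.17 (adjusted p = 0.0135) and *Gsdmd* 0.57 (adjusted p = 0.0275, limma).

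For the 5 members with at least 1 FPKM in a condition, the genes with the most similar profile were sought by Pearson's r of log2(FPKM + 0.1) over the 6 libraries, among 9410 entries with a gene name and a mean of at least 1 FPKM. With *Il33* these were *Mmp10*, *Fkbp5* and *Ubr2*, with *Cxcl10* *Anxa5*, *Dnpep* and *Fbxw5*, with *Csf1* *Jade1*, *Plekha3* and *Adam17*, with *Il6* *Ogfod1*, *Ssr4* and *Nfil3*, and with *Lif* *Mpc2*, *Pdcd5* and *Rpl32*. All r were at least 0.98. *Cxcl10* entered only through the libraries with *Xbp1* siRNA, and its control values were at 1 or 2 reads, so that its similar profiles rest on values at the read floor. The 6 points share 2 conditions, so that a high r is common among genes that differ between them. *Mmp10*, the gene of the matrix protease stromelysin-2, fell from 87.8 FPKM to 22.4 FPKM on average (log2FC −1.97), while *Anxa5*, which followed *Cxcl10*, changed by 0.32.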

How the data were processed

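RNA-Seq of 6 libraries was analysed, 3 with control siRNA and 3 with *Xbp1* siRNA, grouped by their titles. The authors deposited 1 file per library with FPKM values of 27873 entries named by gene symbol. The submitters' processing notes name HISAT2 2.1.0 and Cuffdiff 2.2.1; the genome build and annotation are not given in the sources used here, so no coordinates or sequences are printed, and the RefSeq table of assembly CriGri-PICRH-1.0 (8 of 8 symbols matched) served for gene order only. Raw counts were not used here, and FPKM is not a count, so the count model of the study's methods was replaced by limma 3.58.1 in R 4.3.3 (lmFit, eBayes with trend) on log2(FPKM + 0.1), with the study's thresholds (adjusted p under 0.05, log2 fold change of at least 1) and a filter at a mean of 0.1 FPKM. The procedure was tested on simulated data. Other steps used Python 3.11.15, numpy 2.4.6, pandas 2.3.3 and scipy 1.17.1.

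The files state no read depth. Where a gene's values were whole multiples of a step in all libraries, within 0.03 reads plus 0.005 per read, a step was taken as 1 read; this held for 65.7% of 3065 low entries. A read was worth 0.0184 to 0.144 FPKM (10th to 90th percentile of these entries). The most common ratios of low values gave depths of 94.0% to 116% of control replicate 1. Read intervals are exact (Clopper-Pearson) and cover counting error only.

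The members and lists were chosen with earlier results of these data known. Named genes are the members, *Xbp1*, each called gene of the other lists or, where none was called, the 3 with the smallest p, and the 3 most similar profiles per member. A gene of the IL-1 processing list that this rule names is not reported here. The receptors of each ligand, neighbouring genes, markers, *Mif*, *Tnfsf9*, *Tial1*, *Capn1*, *Capn2* and *Gsdmd* were named in addition, after their values were seen. Alternatives were other pseudocounts, filters, scalings and eBayes settings, the replicate number as a block, no fold threshold, another step tolerance and leaving out each library.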

Additional observations from a re-analysis of the deposited data

How the results depend on the processing

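No fold change of a member reversed direction, and *Il33* and *Cxcl10* stayed called wherever they were tested; *Cxcl10* falls under a filter at a mean of 1 FPKM. With a pseudocount of 1, 114 entries were called higher and 205 lower, as were 1 member (*Cxcl10*) higher, 2 other ligands and 0 receptors, and *Il7* had a log2 fold change of 0.25, since a larger pseudocount shrinks the changes of weakly expressed genes. With a pseudocount of 0.01, 1 member was called higher and *Il7* had 2.93. With a filter at a mean of 1 FPKM, which tests fewer entries, 242 were called higher, with 0 members higher and 2 other ligands. After quantile normalization 1 member was called higher, *Il7* had 1.24 and 0 receptors were called; the cause was not tested.

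Without the fold threshold, which lets more entries pass, 2898 entries were higher and 2904 lower, with 4 members higher, and 11 other ligands, 3 receptors, 7 signalling genes, 5 RNA-binding protein genes and 6 IL-1 processing genes passed. Leaving out 1 library gave 1 member called higher in each fit, 0 to 1 receptors, and *Il7* between 1.17 and 1.43. With the replicate number as a block, 1 member was called higher and *Il7* had 1.34 with an adjusted p of 0.0744 (limma); the cause was not tested. Replicate numbers were not treated as a pairing: across genes, the deviations of libraries 1, 2 and 3 of the conditions from their group means had correlations of −0.029, −0.027 and −0.012. Scaling to equal FPKM sums was chosen after seeing the data and changed no call of a member. The wider step tolerance left the reads of *Cxcl10*, *Csf2*, *Il7* and *Il1a* unchanged. Depth limits *Cxcl10*, *Csf2*, *Il7* and *Il1a*, with at most 2 reads in any control library.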
